A study of Mus musculus with 12 samples.

Results

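The expression of 10 genes that encode germ cell RNA-binding proteins was examined in adult mouse spermatogonia. The genes were chosen by name: *Nanos1*, *Nanos2*, *Nanos3*, *Dazl*, *Dnd1*, *Lin28a*, *Lin28b*, *Elavl2*, *Igf2bp1* and *Igf2bp3*. All 10 were found among the 55385 genes of the deposited RNA-seq table, each as 1 row, and all 10 passed the filter on low values in every comparison. Values are TPM, the length-corrected share of a library's transcripts that a gene takes, so levels can be compared between genes.

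There were 12 libraries in 6 groups of 2. WT libraries came from C57BL/6 mice at 2 to 3 months of age, from sorted undifferentiated spermatogonia (Aundiff, E-Cadherin+, CD9 high, KIT-) and differentiating spermatogonia (Adiff, E-Cadherin+, CD9 medium, KIT+). The other 8 libraries were Aundiff of mice on a mixed C57BL/6 X FVB/NJ background. All of these mice lacked the Polycomb gene *Ring1* (*Ring1*-/-) and carried *Ddx4-Cre*, which acts in germ cells after embryonic day 15. PRC1ctrl littermates were *Ring1*-/-; *Rnf2* F/+; *Ddx4-Cre*, and PRC1cKO mice were *Ring1*-/-; *Rnf2* F/-; *Ddx4-Cre*, so that the controls kept an intact *Rnf2* allele. Of each label, 2 libraries came from untreated mice at 2 months (mo). A further 2 came from mice given about 30 daily subcutaneous injections of Win18446 in DMSO (50 µl at 40 µg/µl) from 1 month of age, and sampled 24 h after the last. Win18446 blocks the synthesis of retinoic acid, the signal that starts spermatogonial differentiation. No vehicle-treated group was analysed here.

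The untreated PRC1 libraries were prepared from about 7000 pooled cells with a low-input kit that does not mark strand, and all others from 100000 to 150000 pooled cells with a stranded polyA kit. Treatment and kit therefore cannot be told apart between the PRC1 groups at 2 mo and after Win18446. The low-input libraries had 12422 to 13986 genes at 1 TPM or more and 12.5% to 16.7% of their TPM on mitochondrial genes, against 14796 to 16599 genes and 4.28% to 6.69% in the others. *Ring1* was at 0.03 to 0.25 TPM in the 8 PRC1 libraries and at 8.61 to 19.9 TPM in the WT libraries. *Rnf2* did not separate the labels in the direction of a deletion. Its TPM was 28.3 and 47.6 in PRC1ctrl and 56.7 and 67.5 in PRC1cKO at 2 mo, and 78.1 and 67.2 in PRC1ctrl and 86.2 and 93.1 in PRC1cKO after Win18446. A value per gene does not show which exons were read, so the genotypes are given here as the labels of the libraries. Of the cell type markers, *Kit*, the gene product used in the sort, was at 6.38 and 6.96 TPM in WT Aundiff and at 247 and 245 TPM in WT Adiff. The summed TPM of 12 markers of undifferentiated spermatogonia was 997 to 1163 in WT Aundiff and 377 to 440 in WT Adiff.

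RNA-binding proteins set which messages a germ cell translates, keeps or destroys. NANOS proteins recruit the CCR4-NOT deadenylase complex to messages and repress them, with DND1 as a partner that binds the RNA. NANOS2 and NANOS3 are known for their roles in spermatogonial stem cells and primordial germ cells. DAZL is a germ cell activator of translation, LIN28A and LIN28B bind the precursors of let-7 microRNAs and block their maturation, ELAVL2 binds AU-rich elements, and the IGF2BP proteins are oncofetal factors that stabilise bound messages.

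Between WT Aundiff and WT Adiff, 2 of the 10 genes rose (*Nanos1* and *Lin28b*) and 3 fell (*Nanos2*, *Nanos3* and *Lin28a*). In limma on log2(TPM + 1), a call required both an adjusted p under 0.05 and a log2 fold change beyond 1 in either direction. By the same rule 11.1% of the 15470 genes tested were called higher and 9.24% lower. The counts over the 10 genes are given beside these shares as a description, without a test of the list. The p-values measure only the spread between these libraries, which were pools of sorted cells, and in bulk samples fewer cells of a type and less RNA per cell cannot be told apart. The median log2 fold change was 0.06 over the 10 genes and 0.15 over all genes tested. Between the PRC1 labels at 2 mo, 0 genes of the 10 were called higher and 1 lower (*Nanos3*), with a background of 0.222% higher and 1.94% lower among 13953 genes. After Win18446, 0 of the 10 were called in either direction by limma, although 1.27% of 16521 genes were called higher and 10.9% lower. On adjusted p alone, 5385 of the 16521 genes tested after Win18446 were under 0.05 by limma. Of the 10, 2 (*Lin28b* and *Igf2bp1*) had an adjusted p under 0.05 there (0.0156 and 0.0367) but missed the threshold on fold. Both were below the control, and no other tool was run.

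**Figure D1:**
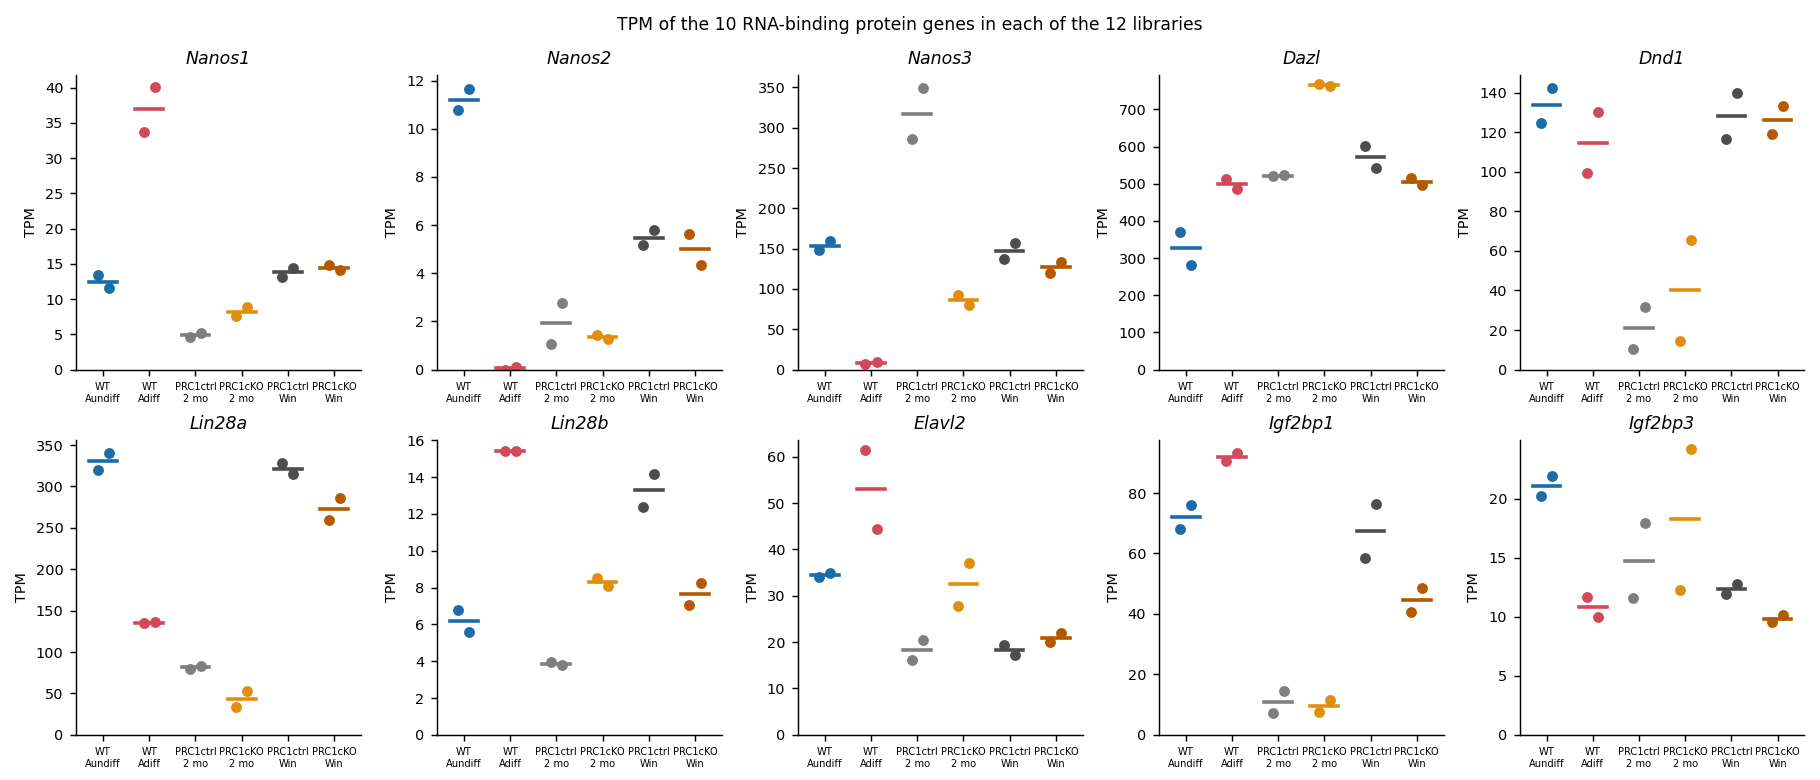
Points are the TPM of single libraries and short lines are group means, with 1 panel per gene, linear axes from 0 and 2 libraries per group. *Nanos3* sits at 7.44 to 9.19 TPM in WT Adiff and at 80.6 TPM or more in all Aundiff libraries, and *Lin28a* is at 83.1 TPM or less in the 4 libraries of the untreated PRC1 mice.

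**Figure D2:**
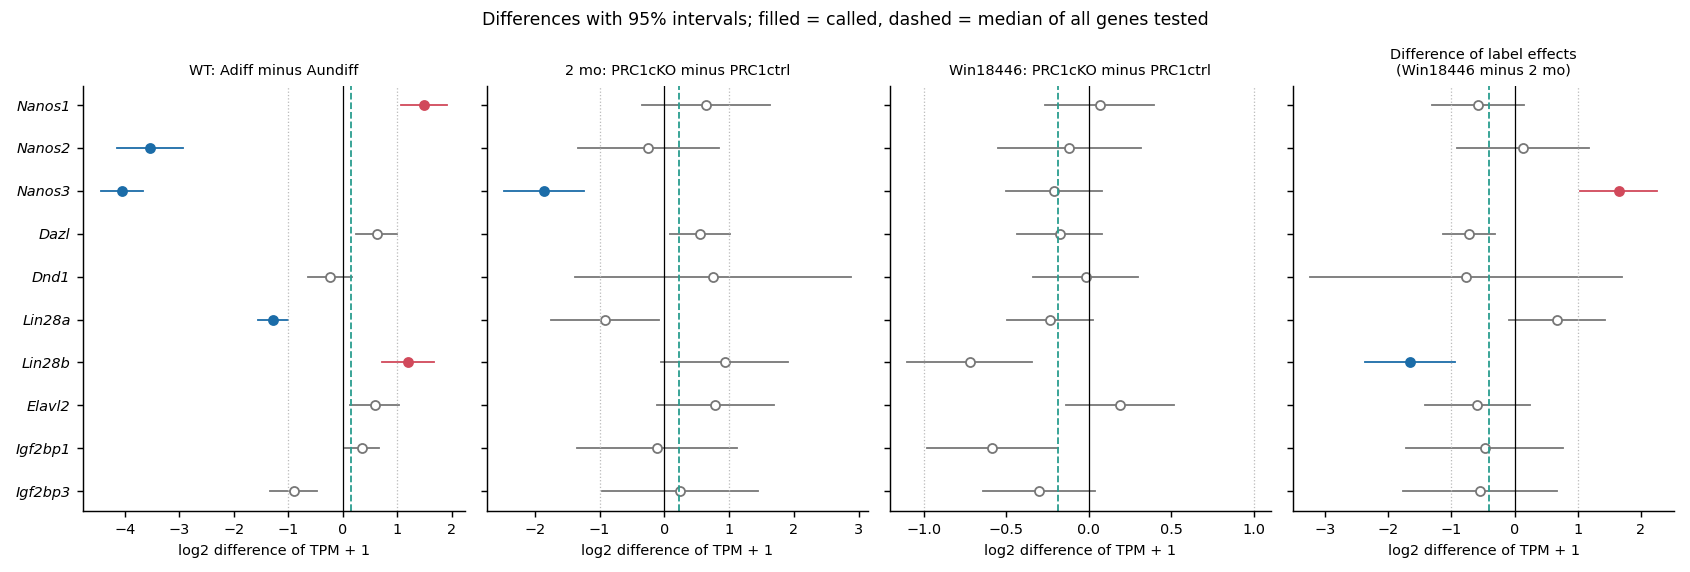
Points are differences on the log2(TPM + 1) scale and lines their 95% intervals from limma. Filled points were called, dotted lines mark the threshold of 1, dashed lines the median of all genes tested, and the panels have separate horizontal scales. *Nanos3* is the 1 gene called in both WT and the label comparison at 2 mo, with log2 fold changes of -4.06 and -1.86.

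The *Nanos* family changed composition between the WT cell types. *Nanos3* (GRCm38 chr8:84173731-84185217, minus strand) was at 148 and 159 TPM in WT Aundiff and at 7.44 and 9.19 TPM in WT Adiff. The groups were far apart, and *Nanos3* fell by 4.06 on the log2 scale (SE 0.16, adjusted p = 0.000205). *Nanos2* (chr7:18987400-18988962, plus strand), a marker of the most primitive spermatogonia, was at 10.8 and 11.7 TPM in Aundiff and was listed at 0 and 0.10 TPM in Adiff. It fell by 3.54 on the log2(TPM + 1) scale (SE 0.25, adjusted p = 0.000866), a value that depends on the pseudocount because 1 library was at 0. With a pseudocount of 1 the change of *Nanos3* was the larger of the pair, and with a pseudocount of 0.1 that of *Nanos2* was (-6.32 against -4.20). Without either WT Aundiff library *Nanos2* did not pass the filter and was not tested. *Nanos1* (chr19:60755987-60759914, plus strand) moved the other way, from 13.4 and 11.6 TPM in Aundiff to 33.8 and 40.1 TPM in Adiff. Its log2 fold change was 1.49 (SE 0.18, adjusted p = 0.00255). *Nanos3* made up 86.0% and 87.3% of the summed TPM of the 3 genes in WT Aundiff and 18.1% and 18.6% in WT Adiff. *Nanos1* made up 7.78% and 6.34% in Aundiff and 81.9% and 81.2% in Adiff. The summed level of the family was 172 and 182 TPM in Aundiff and 41.2 and 49.4 TPM in Adiff, so the larger share of *Nanos1* was a share of a smaller sum.

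Reads of *Nanos2* and its opposite-strand neighbour overlap in position. The transcript *Gm45058* covers 49.0% of the exonic bases of *Nanos2* on the other strand, at 0.91 and 6.72 TPM in WT Aundiff and at 0.11 TPM or less in all 8 PRC1 libraries. The WT libraries were stranded, but whether strand was used in estimating TPM is not stated. In the low-input libraries, which do not mark strand, reads of the pair cannot be told apart.

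In all 8 PRC1 libraries *Nanos3* had the highest level of the 3 *Nanos* genes and *Nanos2* the lowest. At 2 mo *Nanos3* was at 286 and 349 TPM under the label PRC1ctrl, above every other library, and at 92.4 and 80.6 TPM under PRC1cKO. It fell by 1.86 (SE 0.25, adjusted p = 0.0383). *Nanos3* was also listed as lower in PRC1cKO at this age by the authors' own test on read counts. After Win18446 it was at 137 and 157 TPM in PRC1ctrl and at 120 and 133 TPM in PRC1cKO, with a log2 difference of -0.21 (95% interval -0.50 to 0.08, adjusted p = 0.226). The label effect itself differed between the conditions, by 1.65 (SE 0.26, adjusted p = 0.0176) in a fit of the interaction over all 8 libraries, in which 2.76% of 18354 genes were called higher and 4.98% lower. *Nanos3* was 63.4 to 265 times the level of *Nanos2* in the untreated PRC1 libraries and 21.4 to 30.6 times in those after Win18446.

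*Nanos2* was at 1.08 and 2.75 TPM in PRC1ctrl and at 1.43 and 1.27 TPM in PRC1cKO at 2 mo. After Win18446 it was at 5.16 and 5.78 TPM in PRC1ctrl and at 5.63 and 4.35 TPM in PRC1cKO. Its libraries overlapped between the labels in both conditions. *Nanos1* was at 4.58 and 5.19 TPM in PRC1ctrl and at 7.54 and 8.83 TPM in PRC1cKO at 2 mo, with no overlap and a log2 difference of 0.64 that was not called (95% interval -0.35 to 1.63, adjusted p = 0.544). After Win18446 it was at 13.2 and 14.4 TPM in PRC1ctrl and at 14.8 and 14.2 TPM in PRC1cKO, which overlapped. The Win18446 libraries and WT Aundiff thus held *Nanos1* at 11.6 to 14.8 TPM, with each of these 3 groups overlapping its neighbour in level.

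The calls for *Nanos3* at 2 mo rested on 2 libraries per label. The adjusted p was 0.0859 without PRC1cKO replicate 1 and 0.124 without replicate 2, and 0.0227 or 0.0274 without either PRC1ctrl library. It was 0.193 when genes of low TPM were not filtered out. The interaction lost its call without PRC1cKO replicate 2 at 2 mo (adjusted p = 0.0576) and without each library after Win18446 (0.0818 to 0.105). *Nanos3* moved there with markers of other cell types. Of 8 spermatid markers 6 were tested, 5 of these were called lower in PRC1cKO at 2 mo (*Odf1*, *Prm1*, *Prm2*, *Tnp1* and *Tnp2*), and the sum of the 8 was 761 to 1764 TPM in PRC1ctrl and 58.8 to 64.8 TPM in PRC1cKO. Of 6 spermatocyte markers 2 were called lower (*Ldhc* and *Pgk2*), and 0 higher. Their sum over the 6 was 233 to 392 TPM in PRC1ctrl and 193 to 197 TPM in PRC1cKO. The sum of 9 markers of differentiating spermatogonia was 316 to 415 TPM in PRC1ctrl and 697 to 894 TPM in PRC1cKO, with 0 of the 9 called by limma. Of these, the authors' own test on read counts listed *Kit*, *Esx1* and *Crabp1* as higher in PRC1cKO. The sum of 12 markers of undifferentiated spermatogonia was 698 to 1134 TPM in PRC1ctrl and 383 to 553 TPM in PRC1cKO, with 0 of the 11 tested called and a median log2 difference of 0.10. *Sall4* took most of this sum, at 517 and 704 TPM in PRC1ctrl and 266 and 314 TPM in PRC1cKO (log2 difference -1.06, adjusted p = 0.118). The authors' test on read counts listed *Sall4* as lower. *Upp1* of the same list was at 139 and 324 TPM in PRC1ctrl and at 58.1 and 82.9 TPM in PRC1cKO. Its log2 difference was -1.60 (limma adjusted p = 0.188), beside the median of 0.10 over the 11 tested. The sum of 5 Leydig cell markers was 1.01 to 1.18 TPM in PRC1ctrl and 20.6 to 46.7 TPM in PRC1cKO, with *Hsd3b1* called higher. The part of these cells in the *Nanos3* result was not tested.

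After Win18446 the spermatid sum was 129 to 141 TPM in PRC1ctrl and 24.0 to 25.9 TPM in PRC1cKO, with 4 of the 6 tested markers called lower and *Prm2* and *Acrv1* listed at 0 in both PRC1cKO libraries. The spermatocyte sum was 87.5 to 105 TPM in PRC1ctrl and 53.9 to 59.8 TPM in PRC1cKO, with 1 of the 5 tested called lower (*Pgk2*). Of the 9 differentiating markers 3 were called higher (*Kit*, *Esx1* and *Dmrtb1*), and the sum was 387 to 395 TPM in PRC1ctrl and 530 to 590 TPM in PRC1cKO. The authors' test on read counts listed these 3 and also *Tcea3* as higher after Win18446. By limma *Tcea3* was at 0.985 (adjusted p = 0.0339), just inside the threshold on fold. Of the 12 undifferentiated markers 1 was called lower (*Neurog3*), and the sum was 1171 to 1269 TPM in PRC1ctrl and 949.5 to 1070.3 TPM in PRC1cKO. The Leydig sum was 81.9 to 396 TPM in PRC1ctrl and 20.2 to 72.4 TPM in PRC1cKO, the opposite direction to 2 mo, with 0 of the 5 called after Win18446 and *Insl3* called lower in the interaction (-5.82, adjusted p = 0.0478). *Nanos3* was not called after Win18446. In the WT groups the spermatid sum was 803 to 882 TPM in Aundiff and 551 to 739 TPM in Adiff, with 0 of 8 called, beside the large fall of *Nanos3*.

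**Figure D3:**
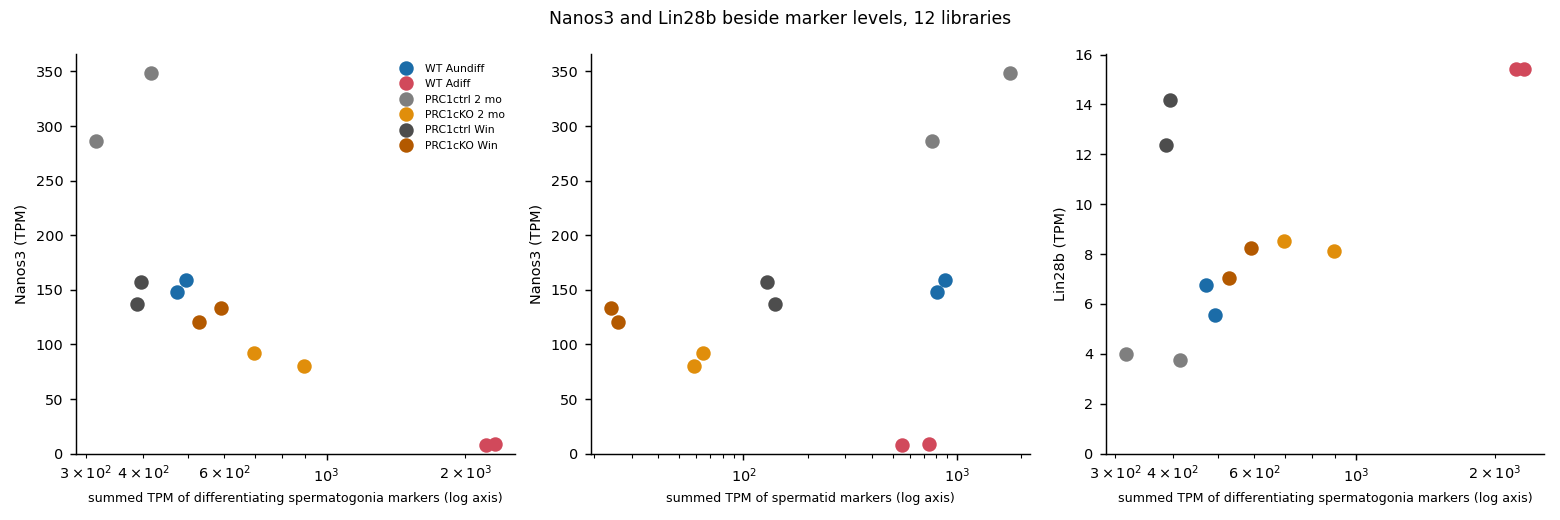
Points are libraries, with TPM of *Nanos3* or *Lin28b* on a linear vertical axis and the summed TPM of a marker list on a log horizontal axis, coloured by group. WT Adiff combines the lowest *Nanos3* (7.44 and 9.19 TPM) with a differentiating marker sum of 2225 to 2320 TPM, while its spermatid sum of 551 to 739 TPM lies within the range of the other groups.

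To show the sequence around the starts of the genes that were called in WT, the windows from 250 bases before to 50 bases after the RefSeq transcript start (GRCm38.p6) are given 5′ to 3′, with CpG dinucleotides in capitals. Polycomb complexes are known to occupy CpG-rich promoters, and these windows differ widely in CpG number.
Nanos1, chr19:60755737-60756036, plus strand: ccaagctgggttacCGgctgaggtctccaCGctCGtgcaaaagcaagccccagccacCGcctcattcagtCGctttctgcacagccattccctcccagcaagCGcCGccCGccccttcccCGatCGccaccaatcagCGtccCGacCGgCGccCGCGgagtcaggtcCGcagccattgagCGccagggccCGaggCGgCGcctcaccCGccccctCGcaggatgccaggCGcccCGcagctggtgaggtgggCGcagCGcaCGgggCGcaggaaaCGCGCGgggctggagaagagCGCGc
Nanos2, chr7:18987274-18987573, plus strand: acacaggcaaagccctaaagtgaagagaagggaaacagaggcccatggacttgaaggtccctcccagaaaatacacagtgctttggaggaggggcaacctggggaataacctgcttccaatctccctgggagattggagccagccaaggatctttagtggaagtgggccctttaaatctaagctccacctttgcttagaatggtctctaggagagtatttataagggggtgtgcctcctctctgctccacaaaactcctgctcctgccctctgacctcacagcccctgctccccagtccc
Nanos3, chr8:84176503-84176802, minus strand: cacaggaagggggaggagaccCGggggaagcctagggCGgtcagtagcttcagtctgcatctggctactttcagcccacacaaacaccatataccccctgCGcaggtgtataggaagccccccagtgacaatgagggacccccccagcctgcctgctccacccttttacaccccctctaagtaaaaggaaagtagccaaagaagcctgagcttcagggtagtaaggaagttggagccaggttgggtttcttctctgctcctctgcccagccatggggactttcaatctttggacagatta
Lin28a, chr4:134018767-134019066, minus strand: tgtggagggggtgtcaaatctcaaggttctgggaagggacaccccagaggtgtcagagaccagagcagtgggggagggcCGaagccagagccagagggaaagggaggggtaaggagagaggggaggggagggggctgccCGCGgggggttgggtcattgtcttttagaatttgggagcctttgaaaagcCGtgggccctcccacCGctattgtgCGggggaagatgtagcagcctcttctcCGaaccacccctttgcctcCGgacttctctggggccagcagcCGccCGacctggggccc
Lin28b, chr10:45470152-45470451, minus strand: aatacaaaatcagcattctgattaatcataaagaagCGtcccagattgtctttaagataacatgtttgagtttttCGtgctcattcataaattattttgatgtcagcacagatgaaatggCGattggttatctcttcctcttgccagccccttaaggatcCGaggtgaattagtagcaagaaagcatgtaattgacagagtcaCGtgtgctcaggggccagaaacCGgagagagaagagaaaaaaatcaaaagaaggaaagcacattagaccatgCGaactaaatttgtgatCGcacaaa

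The *Nanos1* window holds 34 CpGs, more than 92.3% of the 32851 windows in the RefSeq table. The *Nanos2* window holds 0, the *Nanos3* window 3, the *Lin28b* window 8 and the *Lin28a* window 10, beside a median of 7 over all windows. The 3 genes that fell thus have 0 to 10 CpGs here, and the 2 that rose have 8 and 34. For *Nanos3* and *Lin28b* the gene as annotated in the deposited table begins further upstream than the RefSeq start, so an upstream start is not covered by these windows. The E-box CANNTG (1 orientation, since it is its own reverse complement) was found 1 time in the *Nanos1* window, 2 times each in those of *Nanos3* and *Lin28b*, and not in those of *Nanos2* and *Lin28a*, and 72.3% of all windows hold it. The GC box GGGCGG (both strands) was found 3 times in the *Nanos1* window and 1 time each in those of *Nanos3* and *Lin28a*, and 35.7% of all windows hold it. The CNCCTCAG motif (both strands) was found in none of these 5 windows, was found 1 time in the *Dazl* window, and is held by 7.94% of all windows. Windows were read for 8 of the 10 genes, with *Dnd1* not among those read.

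*Dnd1* and *Dazl* were expressed at high levels in both WT cell types. *Dnd1*, the partner of NANOS proteins, was at 125 and 143 TPM in WT Aundiff and at 99.5 and 130 TPM in WT Adiff. These groups overlapped, with a log2 difference of -0.23 (95% interval -0.63 to 0.18, adjusted p = 0.325). *Dazl* was at 371 and 282 TPM in WT Aundiff and at 513 and 485 TPM in WT Adiff, without overlap. Its log2 difference of 0.62 (SE 0.16, adjusted p = 0.0231) passed the threshold on p but not that on fold, and after scaling the libraries by median-of-ratios factors its value was 0.51 with an adjusted p of 0.0609. *Dazl* had the highest TPM of the 10 genes in 11 of the 12 libraries and ranked between 147 and 398 among 21897 protein-coding genes.

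Under the PRC1 labels *Dazl* was at 519 and 524 TPM in PRC1ctrl and at 769 and 762 TPM in PRC1cKO at 2 mo. The groups did not overlap, but the log2 difference of 0.55 was not called (95% interval 0.09 to 1.02, adjusted p = 0.263) and was 0.18 with median-of-ratios scaling. After Win18446 *Dazl* was at 602 and 542 TPM in PRC1ctrl and at 515 and 496 TPM in PRC1cKO, with a log2 difference of -0.18 (95% interval -0.44 to 0.08, adjusted p = 0.256) that turned to 0.12 with that scaling. *Dnd1* varied with the replicate at 2 mo. It was at 10.25 and 31.4 TPM in PRC1ctrl and at 14.4 and 65.7 TPM in PRC1cKO, so that replicate 2 was above replicate 1 under both labels and the 95% interval of the log2 difference ran from -1.38 to 2.87. *Wdr55*, which overlaps 5.80% of the exonic bases of *Dnd1* on the other strand, was also higher in replicate 2, at 44.3 against 25.9 TPM in PRC1ctrl and 52.6 against 28.8 TPM in PRC1cKO. The shift was not confined to this pair. Median-of-ratios factors were also higher in replicate 2, at 0.68 against 0.44 in PRC1ctrl and 0.85 against 0.60 in PRC1cKO. After Win18446 *Dnd1* was at 117 and 139.8 TPM in PRC1ctrl and at 119 and 133 TPM in PRC1cKO, with a log2 difference of -0.02 (95% interval -0.34 to 0.30, adjusted p = 0.926), which bounds a change in either direction well under the fold threshold.

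The LIN28 paralogs moved in opposite directions between the WT cell types. *Lin28a* (chr4:134003330-134018841, minus strand) was at 320 and 341 TPM in WT Aundiff and at 135 and 136 TPM in WT Adiff. It fell by 1.28 on the log2 scale (SE 0.11, adjusted p = 0.00129). *Lin28b* (chr10:45376620-45486395, minus strand) was at 6.77 and 5.56 TPM in Aundiff and at 15.4 and 15.4 TPM in Adiff, and rose by 1.20 (SE 0.20, adjusted p = 0.00633). The ratio of *Lin28a* to *Lin28b* TPM was 47.2 and 61.3 in Aundiff and 8.76 and 8.81 in Adiff. *Lin28a* remained the major form, at 97.9% and 98.4% of the sum in Aundiff and 89.8% and 89.8% in Adiff.

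At 2 mo *Lin28a* was at 79.6 and 83.1 TPM in PRC1ctrl and at 34.2 and 53.2 TPM in PRC1cKO. The groups did not overlap, and the log2 difference of -0.91 was not called (95% interval -1.74 to -0.09, adjusted p = 0.299). The authors' own test on read counts listed *Lin28a* as lower in PRC1cKO at this age. *Lin28b* was at 3.98 and 3.77 TPM in PRC1ctrl and at 8.53 and 8.11 TPM in PRC1cKO, with a log2 difference of 0.93 that was not called (95% interval -0.05 to 1.91, adjusted p = 0.372). The ratio of *Lin28a* to *Lin28b* was 20.0 and 22.05 under PRC1ctrl and 4.01 and 6.56 under PRC1cKO. After Win18446 *Lin28a* was at 328 and 315 TPM in PRC1ctrl and at 259 and 286 TPM in PRC1cKO, with a log2 difference of -0.24 (95% interval -0.50 to 0.02, adjusted p = 0.141) that turned to 0.06 with median-of-ratios scaling. *Lin28b* was at 12.4 and 14.2 TPM in PRC1ctrl and at 7.06 and 8.26 TPM in PRC1cKO, a log2 difference of -0.72 (SE 0.16, adjusted p = 0.0156) that passed the threshold on p but not that on fold, and was -0.43 with an adjusted p of 0.051 with that scaling. *Lin28b* was therefore above the control at 2 mo and below it after Win18446 in every library, and the interaction was called at -1.66 (SE 0.30, adjusted p = 0.0251). With median-of-ratios scaling the interaction was -1.08 with an adjusted p of 0.209, and it was also lost with a pseudocount of 0.1 (adjusted p = 0.0545) and when genes under a mean of 5 TPM were left out (adjusted p = 0.0566). Leaving out a library ended this call in all cases (0.0502 to 0.177) except those of PRC1ctrl replicate 2 and PRC1cKO replicate 1 at 2 mo.

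Because LIN28 proteins act on let-7, and let-7 in turn is known to target *Lin28* and *Igf2bp* messages, matches to the let-7 seed were sought in the 3′ UTRs of the 10 genes. Of the mature let-7 sequences in RefSeq, 3 are shown 5′ to 3′ with the seed, bases 2 to 8, in capitals. All mature let-7 forms read here (a to i) share this seed.
mmu-let-7a-5p: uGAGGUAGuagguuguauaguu
mmu-let-7b-5p: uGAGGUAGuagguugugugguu
mmu-let-7g-5p: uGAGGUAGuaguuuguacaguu

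The longest 3′ UTR annotated for each gene in gencode vM21 (GRCm38) was searched for the reverse complement of the seed. There were 11 matches in 4 of the 10 genes: 4 in *Lin28b*, 4 in *Igf2bp1*, 2 in *Lin28a* and 1 in *Igf2bp3*. Each window below is in the sense of the message, with the match in capitals, and those followed by an A, which extends the pairing site, are shown for each gene together with match 2 of *Lin28b*, which is not.
Lin28a match 1, chr4:134005179-134005207, minus strand: agcctgttgaaCTACCTCatttttgccga
Lin28a match 2, chr4:134004541-134004569, minus strand: tcgccacaaacCTACCTCactgtgttgaa
Lin28b match 1, chr10:45381012-45381040, minus strand: gggcgggaagtCTACCTCatgcaagcaca
Lin28b match 2, chr10:45378638-45378666, minus strand: cttgttagtaaCTACCTCtgagtttgaca
Igf2bp1 match 1, chr11:95961768-95961796, minus strand: tgcgaagtaaaCTACCTCaaggtgtgaag
Igf2bp1 match 2, chr11:95959347-95959375, minus strand: agtgctattaaCTACCTCagccccagagg
Igf2bp1 match 3, chr11:95958753-95958781, minus strand: aaatggatgaaCTACCTCagtcctcacag
Igf2bp3 match 1, chr6:49086777-49086805, minus strand: tttttactcaaCTACCTCaggtattcagt

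A match was present in 9.02% of the 21006 longest 3′ UTRs of protein-coding genes. Long UTRs hold more matches, and among UTRs of similar length (from 0.8 times the length, with the same ratio as the upper limit), the share with at least 1 match was 24.3% for *Lin28b* (4445 bases), 34.3% for *Igf2bp1* (6337 bases), 14.7% for *Lin28a* (2775 bases) and 13.3% for *Igf2bp3* (2119 bases). The mean number of matches in these length groups was 0.298, 0.444, 0.176 and 0.151. A match describes the sequence and is no evidence of use in these cells, where let-7 was not measured. The genes with a match did not move together in WT: *Lin28b* rose, *Lin28a* fell, and *Igf2bp1* and *Igf2bp3* were not called. The motif TGTANATA, bound by the Pumilio partners of NANOS proteins, was found 3 times in *Elavl2*, 2 times in *Lin28b* and 1 time each in *Nanos1* and *Lin28a*, and in 23.2% of all longest UTRs. Among UTRs of similar length the share was 40.0% for *Elavl2*, 55.8% for *Lin28b*, 43.8% for *Nanos1* and 43.0% for *Lin28a*. The UTRs of *Nanos3* (172 bases) and *Dnd1* (360 bases) held neither.

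**Figure D4:**
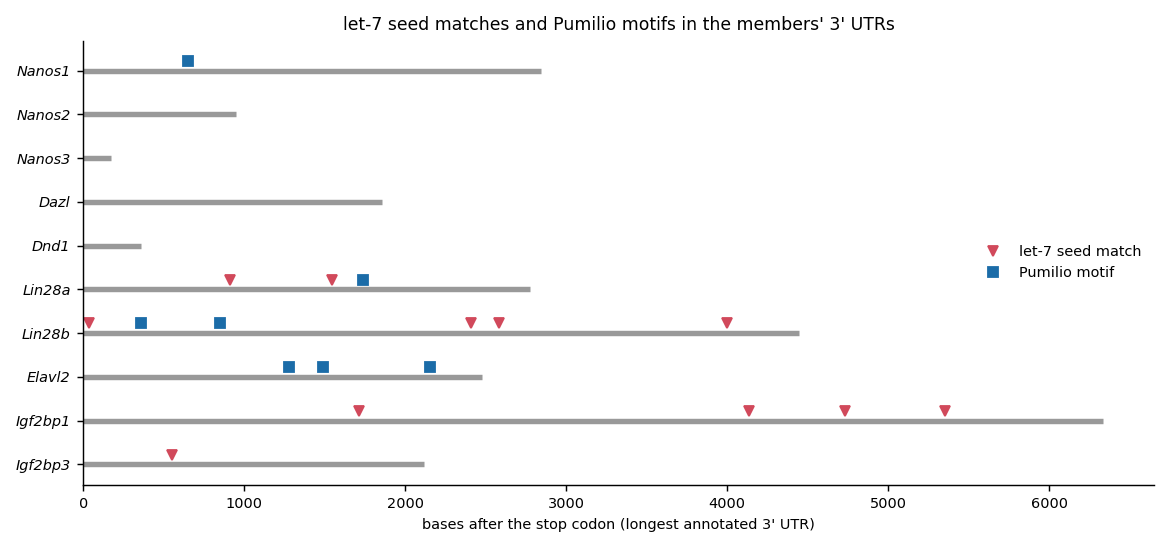
Grey bars are the longest annotated 3′ UTR of each gene in bases after the stop codon, red triangles are let-7 seed matches and blue squares are Pumilio motifs. The let-7 matches lie in *Lin28a* (2), *Lin28b* (4), *Igf2bp1* (4) and *Igf2bp3* (1), and the UTR of *Nanos3* is the shortest at 172 bases.

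Of the IGF2BP family, *Igf2bp1* was at 68.0 and 76.1 TPM in WT Aundiff and at 90.6 and 93.3 TPM in WT Adiff. The groups did not overlap, and the log2 difference of 0.35 was not called (SE 0.13, adjusted p = 0.0784). *Igf2bp3* was at 20.2 and 21.9 TPM in Aundiff and at 11.7 and 9.99 TPM in Adiff. Its log2 difference of -0.90 (SE 0.18, adjusted p = 0.0116) passed the threshold on p, lay just inside that on fold, and was called at -1.004 (adjusted p = 0.00305) when WT Adiff replicate 1 was left out. The paralog *Igf2bp2*, which is not 1 of the 10 genes, fell from 23.1 and 30.3 TPM to 7.32 and 5.22 TPM (log2 fold change -1.93, SE 0.24, adjusted p = 0.00265). *Igf2bp1* made up 61.1% and 59.3% of the summed TPM of the 3 paralogs in Aundiff and 82.7% and 86.0% in Adiff, while the sum was 111 and 128 TPM in Aundiff and 109.6 and 109 TPM in Adiff.

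At 2 mo *Igf2bp1* was at 7.22 and 14.4 TPM in PRC1ctrl and at 7.56 and 11.6 TPM in PRC1cKO, which overlapped. *Igf2bp3* was at 11.6 and 17.9 TPM in PRC1ctrl and at 12.3 and 24.2 TPM in PRC1cKO, which also overlapped. After Win18446 *Igf2bp1* was at 58.6 and 76.5 TPM in PRC1ctrl and at 40.6 and 48.5 TPM in PRC1cKO, with a log2 difference of -0.58 (SE 0.17, adjusted p = 0.0367) that passed the threshold on p but not on fold, and was -0.29 (adjusted p = 0.173) with median-of-ratios scaling. *Igf2bp3* was at 11.95 and 12.8 TPM in PRC1ctrl and at 9.54 and 10.2 TPM in PRC1cKO, a log2 difference of -0.30 that was not called (adjusted p = 0.149). *Malsu1* overlaps 18.7% of the exonic bases of *Igf2bp3* on the other strand, at 149 to 224 TPM in the libraries that do not mark strand and at 43.3 to 73.8 TPM in the stranded ones.

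**Figure D5:**
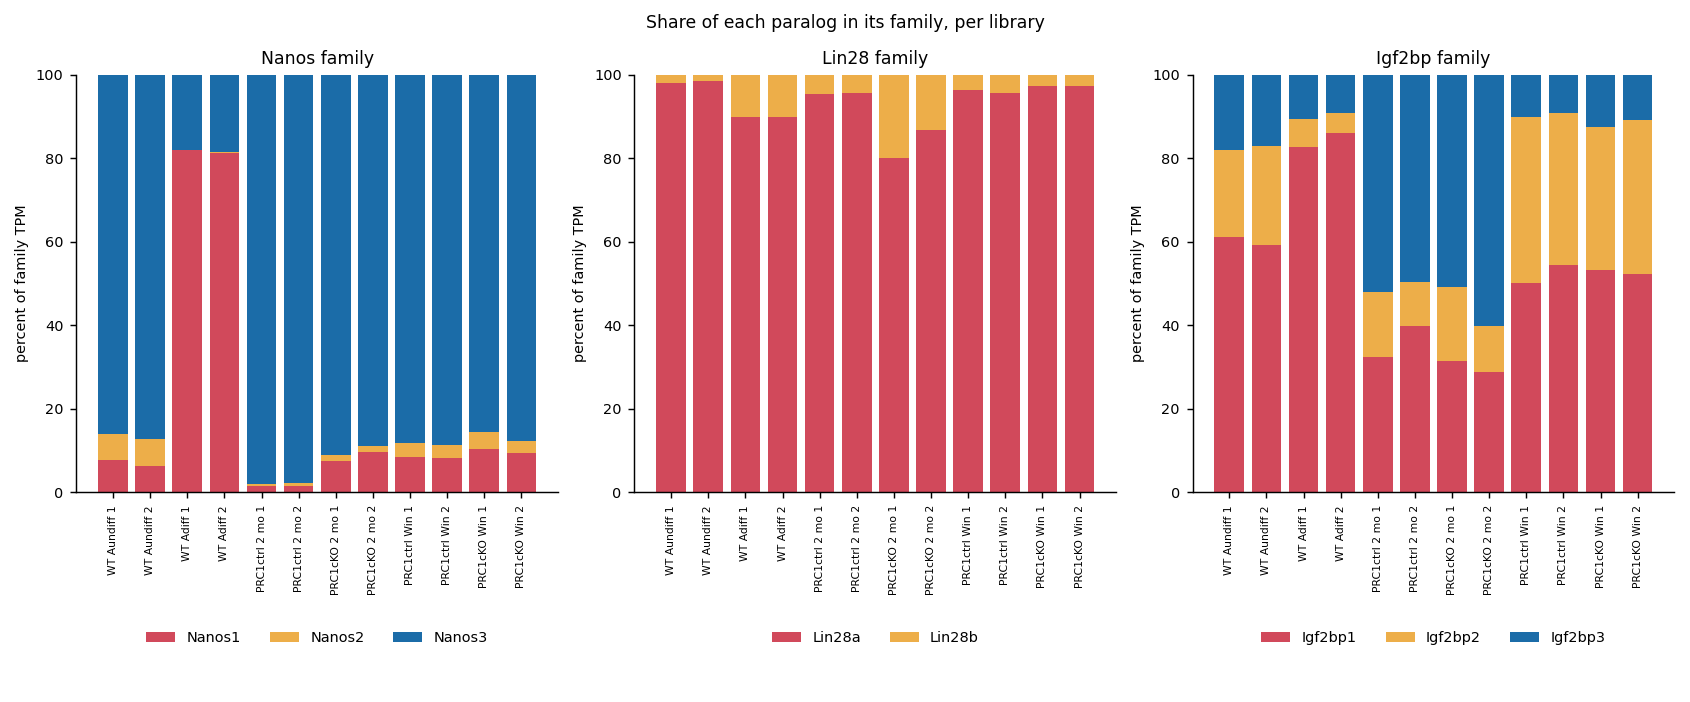
Bars show the percent of the summed TPM of a family taken by each paralog, per library. *Nanos3* takes 85.5% to 98.1% of the *Nanos* sum in all Aundiff libraries and 18.1% and 18.6% in WT Adiff, *Lin28b* takes 1.605% to 20.0% of the *Lin28* sum, and *Igf2bp3* takes 49.7% to 60.2% of the *Igf2bp* sum in the low-input libraries alone.

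*Elavl2*, which binds AU-rich elements, was at 34.0 and 35.0 TPM in WT Aundiff and at 61.4 and 44.5 TPM in WT Adiff. Its log2 difference of 0.59 (SE 0.19, adjusted p = 0.0493) passed on p and not on fold. At 2 mo it was at 16.2 and 20.6 TPM in PRC1ctrl and at 27.9 and 37.0 TPM in PRC1cKO, without overlap and not called (log2 difference 0.78, 95% interval -0.12 to 1.69, adjusted p = 0.419). After Win18446 it was at 19.3 and 17.3 TPM in PRC1ctrl and at 20.0 and 21.9 TPM in PRC1cKO, a log2 difference of 0.19 (95% interval -0.14 to 0.52, adjusted p = 0.325).

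TPM is relative to each library. Median-of-ratios scaling over the 15740 genes above 0 in all libraries moved the median log2 fold change of all genes tested from 0.15 to 0.05 in WT, from 0.22 to -0.09 at 2 mo, from -0.19 to 0.09 after Win18446 and from -0.41 to 0.11 in the interaction. Set against these medians, the log2 difference of *Nanos3* at 2 mo was -1.86 beside 0.22 and -2.24 beside -0.09 after scaling, and those of the 10 genes after Win18446 had a median of -0.19 beside -0.19 for all genes.

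The groups were ordered by the TPM of each gene, without median-of-ratios scaling, so the order holds for TPM alone. The share of all genes with a top group clear of the next was not computed. *Nanos2*, *Dnd1*, *Lin28a* and *Igf2bp3* were highest in WT Aundiff, of which only *Nanos2* stood clear of the next group, PRC1ctrl after Win18446. *Nanos1*, *Lin28b*, *Elavl2* and *Igf2bp1* were highest in WT Adiff, each clear of the next group. *Nanos3* was highest in untreated PRC1ctrl and *Dazl* in untreated PRC1cKO, each clear of the next. *Nanos2* and *Nanos3* were lowest in WT Adiff, clear of the group above.

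The low-input libraries differed from the stranded Aundiff libraries unevenly over the 10 genes. Kit and cell number changed together in this split and cannot be told apart. Strain and genotype also differed from the WT Aundiff libraries, and treatment differed from the PRC1 libraries after Win18446. The part of each was not tested. *Igf2bp1* was at 7.22 to 14.4 TPM in the 4 low-input libraries and at 40.6 to 76.5 TPM in the 6 stranded Aundiff libraries. *Lin28a* was at 34.2 to 83.1 against 259 to 341 TPM, and *Dnd1* at 10.25 to 65.7 against 117 to 143 TPM. The ranges of *Nanos3*, *Dazl*, *Lin28b*, *Elavl2* and *Igf2bp3* overlapped between these sets, at 80.6 to 349 against 120 to 159 TPM for *Nanos3*. The TPM ranges of the sets did not overlap for *Nanos1*, *Nanos2*, *Dnd1*, *Lin28a* and *Igf2bp1*, all lower in the low-input set. Median-of-ratios factors, taken over 15740 genes, were also lower there, at 0.44 to 0.85 against 1.17 to 1.59. These ranges were not compared after such scaling, and the share of all genes without overlap was not computed.

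Other genes of the same pathways were described from lists. Of the 11 CCR4-NOT genes, the deadenylase that NANOS proteins recruit, 1 was called lower in WT, where 9.24% of all genes were, and 0 were called higher: *Cnot6l*, a catalytic subunit, fell from 67.0 and 69.5 to 34.0 and 25.2 TPM (log2 fold change -1.19, SE 0.18, adjusted p = 0.00488). Without WT Adiff replicate 2 *Cnot6l* was at -0.98 and not called. The median over the 11 was 0.05, and 0 of the 11 were called between the labels at 2 mo or after Win18446. Of 10 genes of let-7 processing and LIN28 partners, 2 rose in WT and 0 fell, with a median of 0.28, beside 11.1% of all genes called higher and 9.24% lower. *Ago2*, the slicer Argonaute, rose from 2.17 and 1.65 to 8.60 and 5.97 TPM (log2 fold change 1.497, SE 0.27, adjusted p = 0.00867). *Tut4*, a terminal uridylyltransferase that marks let-7 precursors bound by LIN28, rose from 28.2 and 24.0 to 55.7 and 63.4 TPM (log2 fold change 1.16, SE 0.16, adjusted p = 0.00373). In the same list 0 of the 9 tested were called at 2 mo. After Win18446, 2 of the 10 were lower under PRC1cKO, beside 10.9% of all genes. *Tut4* fell from 61.2 and 62.0 to 18.8 and 28.5 TPM (log2 fold change -1.37, adjusted p = 0.0046), and its relative *Tut7* from 15.7 and 18.8 to 6.26 and 6.82 TPM (log2 fold change -1.27, adjusted p = 0.00298, and -0.96 with median-of-ratios scaling). Of the 5 paralogs, *Elavl3* was called higher in WT, from 0.21 and 0.17 to 3.85 and 6.89 TPM (log2 fold change 2.38, adjusted p = 0.00367), and *Igf2bp2* lower as given above. Between the labels 0 of the 4 tested paralogs were called in either condition.

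Among 20 other germ cell RNA-binding proteins, 6 rose and 3 fell between WT Aundiff and Adiff, with a median of 0.54 beside 0.15 over all genes and 11.1% of all genes called higher and 9.24% lower. The 6 were *Rbm46* (log2 fold change 1.298), *Ythdc2* (1.23), *Meioc* (1.17), *Khdrbs1* (1.17), *Ybx2* (1.06) and *Msi1* (1.04), of which RBM46, YTHDC2 and MEIOC are known as a complex of meiotic entry. The 3 that fell were *Bicc1* (-2.61), *Zfp36l1* (-1.48), which destabilises messages with AU-rich elements, and *Msi2* (-1.34). *Rbm46* was at 33.5 and 30.9 TPM in Aundiff and at 87.6 and 74.0 TPM in Adiff. *Meioc* was at 3.78 and 3.25 TPM in Aundiff and at 10.3 and 8.09 TPM in Adiff. Of the 6 that rose, *Meioc* was lost without WT Aundiff replicate 2 (adjusted p = 0.0591) and *Ythdc2* without WT Aundiff replicate 1 (0.0604) or WT Adiff replicate 1 (0.94 on the log2 scale). *Msi1* was at 0.90 without WT Aundiff replicate 1 and at 0.86 without WT Adiff replicate 2, and *Ybx2* and *Msi1* were at 0.94 and 0.92 with median-of-ratios scaling. In a fit over all 12 libraries *Ybx2* had an adjusted p of 0.202. At 2 mo 0 of the 20 were called by limma, although the authors' own test on read counts listed *Meioc* as higher in PRC1cKO. After Win18446, 0 of the 20 were called higher and 2 lower, a share near the 10.9% of all genes called lower. These were *Ybx2* (log2 fold change -1.34, adjusted p = 0.0062) and *Meioc* (-1.09, adjusted p = 0.0125), of which *Meioc* was at -0.79 with median-of-ratios scaling and at -0.78 without PRC1ctrl replicate 2, and had an adjusted p of 0.0816 or 0.066 without either PRC1cKO library. *Ybx2* had an adjusted p of 0.168 in the fit over all 12 libraries. The median of the 20 was -0.52 beside -0.19 for all genes. In the interaction, 1 of the 10 let-7 genes (*Tut7*, -1.78) and 2 of the 20 RNA-binding proteins (*Meioc*, -2.55, and *Ythdc2*, -1.47) were called lower, beside 4.98% of all genes. With median-of-ratios scaling they were at -1.16 (adjusted p = 0.087), -1.95 (0.0247) and -0.87 (0.189), so that *Meioc* alone of the 3 was called. Each of these 3 calls was lost without any 1 of the 4 libraries after Win18446, with adjusted p-values up to 0.204 for *Tut7*, 0.173 for *Meioc* and 0.235 for *Ythdc2*.

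The protein-coding genes whose log2(TPM + 1) followed each of the 10 most closely over the 12 libraries were found among 11691 genes. For *Nanos3* these were *Fam13c* (Pearson's r 0.979), *Pxt1* (0.976) and *Dppa4* (0.975). For *Lin28a* they were *Lrrc28* (0.989), *Syn2* (0.983) and *Abca1* (0.983), and for *Lin28b* they were *Wsb1* (0.979), *Picalm* (0.971) and *Ap1ar* (0.957). For *Nanos1* they were *Msantd3* (0.990), *Rnf208* (0.986) and *Dap3* (0.982), and for *Nanos2* they were *Rpl4* (0.979), *Stx3* (0.960) and *Aph1c* (0.950). For *Dazl* they were *Trim23* (0.946), *Sypl* (0.940) and *Dcaf17* (0.939), and for *Elavl2* they were *Alpk2* (0.979), *Slamf1* (0.971) and *Vamp3* (0.969). For *Igf2bp3* they were *Gfpt2* (0.939), *Spry4* (0.914) and *Hdgfl1* (0.873). *Dnd1* (*Rrp7a*, *Ap1m1* and *Smpd2*, at 0.995 to 0.996) and *Igf2bp1* (*Zdhhc3*, *Wasf3* and *Lss*, at 0.992 to 0.994) had the closest matches. The TPM of both did not overlap between the low-input and the stranded Aundiff libraries. Points of these correlations share groups and library kits. Among the 10 genes themselves, *Nanos3* and *Nanos1* had an r of -0.862, and *Dnd1* and *Igf2bp1* of 0.903.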

How the data were processed

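RNA-seq of sorted spermatogonia was analysed from the gene-level TPM values that the authors deposited for 12 libraries. The authors trimmed reads with Trim Galore 0.6.6 and estimated TPM with RSEM 1.3.3 on GRCm38. The annotation given to RSEM, and whether RSEM used strand, are not given in the sources used here. TPM keeps no read depth, so no counting interval is given and the depth is unknown.

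Genes at 1 TPM or more in at least 2 of the libraries compared were tested with limma 3.58.1 (R 4.3.3, trend and robust options) on log2(TPM + 1), two-sided, with Benjamini-Hochberg adjustment over all genes tested. Fold changes on this scale understate the change of genes of low TPM. A call required both an adjusted p under 0.05 and a log2 fold change beyond 1 in either direction. A count test, which the authors ran on read counts, was not possible on TPM, so the calls here can differ from theirs. Each comparison used its own libraries, and the interaction all 8 PRC1 libraries. An exact permutation test of 2 against 2 libraries cannot go below 0.333 and was not used. The fit was tested on simulated data. Alternatives covered the pseudocount, the filter, the scaling, the moderation, a replicate block and each library left out.

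The 10 genes and all lists were chosen with earlier results of these data known. All 10 genes, and every called gene of the other lists, were named. For each of the 10, the 3 most alike protein-coding genes were taken among those at 5 TPM or more in at least 2 libraries. Promoters and microRNAs came from RefSeq, and 3′ UTRs from gencode vM21.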

Additional observations from a re-analysis of the deposited data

Results flagged for a closer look

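For 5 genes the difference between the libraries labelled PRC1cKO and PRC1ctrl was not the same after Win18446 and at 2 mo, by the limma interaction test on log2(TPM + 1). They were among the 10 genes and the related lists, of which 4 paralogs, 11 CCR4-NOT, 10 let-7 and 20 other genes were tested. In the same test 2.76% of 18354 genes were called higher and 4.98% lower. Library kit and treatment cannot be told apart in this test. *Nanos3* had a difference of 1.65 between the label effects (adjusted p = 0.0176): it was lower in PRC1cKO at 2 mo (log2 difference -1.86) and was at -0.21 after Win18446. *Lin28b* had a difference of -1.66 (adjusted p = 0.0251), with label differences of 0.93 at 2 mo and -0.72 after Win18446, neither of which was called. With median-of-ratios scaling the *Lin28b* difference was -1.08 (adjusted p = 0.209) and was not called.

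The other 3 genes belonged to the lists of related genes. *Meioc*, a regulator of meiotic entry, had a difference of -2.55 (adjusted p = 0.0308), with 4.50 and 8.67 TPM in PRC1ctrl and 16.9 and 21.6 TPM in PRC1cKO at 2 mo, and 9.26 and 14.7 TPM in PRC1ctrl and 4.85 and 5.08 TPM in PRC1cKO after Win18446. Its partner *Ythdc2* had a difference of -1.47 (adjusted p = 0.0456). The uridylyltransferase gene *Tut7* had a difference of -1.78 (adjusted p = 0.0331). With median-of-ratios scaling the differences were -1.95 for *Meioc* (adjusted p = 0.0247), -0.87 for *Ythdc2* (0.189) and -1.16 for *Tut7* (0.087).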

How the results depend on the processing

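The 5 calls in WT (*Nanos1*, *Nanos2*, *Nanos3*, *Lin28a* and *Lin28b*) held under every alternative in which the gene was tested. *Nanos2* was not tested without either WT Aundiff library, because it then reached 1 TPM in only 1 library and was removed by the filter, and the number called lower there was 2 in place of 3. By limma 0 of the 10 genes were called after Win18446 under any of them. At 2 mo the number called lower, 1, became 0 without a filter on low values (*Nanos3* adjusted p = 0.193) and without the trend and robust options (0.0785), and ranged from 0 to 1 with a library left out. In the interaction the number called lower, 1, became 0 with a pseudocount of 0.1, with genes under a mean of 5 TPM left out and with median-of-ratios scaling. With a library left out, the numbers called higher and lower in the interaction each ranged from 0 to 1. There *Nanos3* lost its call without PRC1cKO replicate 2 at 2 mo (adjusted p = 0.0576) and without each of the 4 libraries after Win18446 (up to 0.105), and *Lin28b* without all but PRC1ctrl replicate 2 and PRC1cKO replicate 1 at 2 mo (0.0502 to 0.177). A left-out library leaves 1 library in its group, which is assumed to vary like the others. The cause of these losses was not tested. Directions turned, for differences that were not called, with median-of-ratios scaling: *Igf2bp3* at 2 mo to -0.11; *Nanos2* to 0.13, *Nanos3* to 0.086, *Dazl* to 0.12, *Dnd1* to 0.28 and *Lin28a* to 0.062 after Win18446; and *Nanos1* to 0.0035, *Elavl2* to 0.037, *Igf2bp1* to 0.18 and *Igf2bp3* to 0.086 in the interaction. With a library left out, the log2 difference at 2 mo ranged from -0.68 to 0.18 for *Nanos2*, from -0.31 to 1.80 for *Dnd1*, from -0.56 to 0.34 for *Igf2bp1* and from -0.22 to 0.71 for *Igf2bp3*. After Win18446 it ranged from -0.27 to 0.037 for *Nanos2* and from -0.15 to 0.11 for *Dnd1*, and in the interaction from -0.29 to 0.56 for *Nanos2* and from -1.82 to 0.29 for *Dnd1*. To describe same-numbered libraries, the deviations of replicate 1 from its group mean were correlated between the 2 groups compared, over the genes tested. The correlation of these deviations was 0.158 in WT, 0.381 at 2 mo and 0.122 after Win18446, but no source states that the numbers pair libraries. A replicate block changed no call among the 10 genes (*Nanos3* at 2 mo stayed at -1.86) and moved the count of all genes at 2 mo from 31 higher and 270 lower to 1074 and 1098, and of those lower in the interaction from 914 to 2249. Over all alternatives the genes called lower ranged from 816 to 1545 in WT, 0 to 1098 at 2 mo, 818 to 2291 after Win18446 and 6 to 2249 in the interaction, and those called higher from 1234 to 1809, 0 to 1074, 104 to 381 and 15 to 976. Both counts of 0 at 2 mo came from limma without a filter, where 2683 genes were at an unadjusted p under 0.05. Median-of-ratios scaling changed the split of higher and lower calls from 1724 and 1430 to 1234 and 1523 in WT, from 210 and 1807 to 339 and 818 after Win18446 and from 506 and 914 to 976 and 293 in the interaction. The same alternatives were run, after seeing the data, for the called genes of the other lists, and none of these turned in direction. TPM keeps no depth, so the precision of low values such as those of *Nanos2* is unknown.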

Other observations

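Within the other families, *Elavl1*, the widely expressed ELAV member, was at 91.2 to 143.9 TPM in every library and made up 60.8% to 85.7% of the summed *Elavl* TPM. *Elavl2* made up 26.2% and 27.6% of this sum in WT Aundiff and 35.3% and 26.7% in WT Adiff. *Boll*, a paralog of *Dazl* known from meiotic germ cells, was at 43.4 and 30.7 TPM in WT Aundiff and at 35.1 and 37.0 TPM in WT Adiff, and *Dazl* stood 8.54 to 23.6 times above it over the 12 libraries. The summed TPM of the 10 genes stayed between 940.2 and 1304 in all libraries, with 1086 and 1116 in WT Aundiff and 963 and 968 in WT Adiff.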
